A study of Homo sapiens with 8 samples.

Results

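The genes described are the platelet-derived growth factors (PDGF) and their receptors: the ligands PDGFA, PDGFB, PDGFC and PDGFD and the receptors PDGFRA and PDGFRB. They were found as all probe sets whose platform annotation names exactly 1 of these 6 symbols, which gave 15 of 54675 probe sets and 6 of 19775 genes. PDGFRA and PDGFB had 4 probe sets each, PDGFA, PDGFC and PDGFD had 2 each, and PDGFRB had 1. RNA of H9, an established human embryonic stem cell line, was measured on 8 Affymetrix arrays, 2 for each of 4 groups. The day 0 group was the undifferentiated culture, unsorted, from a line that the labels say was kept on mouse fibroblast feeder cells. The day 4, day 6 and day 8 groups were cells bearing both KDR, a receptor of vascular endothelial growth factor, and CD31, the endothelial protein encoded by PECAM1. These cells were sorted out of cultures differentiating toward blood in serum-free StemPro34 medium with BMP-4 and further additives. Day and sorting change together between day 0 and every other group and cannot be told apart. The labels call the 2 arrays of a group biological replicates without saying whether they came from separate cultures, so p-values cover no more than the spread between these arrays, whose number limits the precision. Differentiated H9 cells of these dishes that lacked KDR or CD31 were not analysed here.

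PDGFs are secreted dimers that signal through receptor tyrosine kinases. The A and B chains leave the cell in active form after cleavage by furin-like enzymes, whereas the C and D chains carry a CUB domain that extracellular proteases must remove first. The alpha receptor (PDGFRA) binds the A, B and C chains, and the beta receptor (PDGFRB) binds the B and D chains. In growing vessels, endothelial cells secrete PDGFB and so recruit pericytes and smooth muscle cells that carry PDGFRB. PDGFRA is known from early mesoderm, extraembryonic endoderm and stromal progenitors.

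Reference promoter sequences (RefSeq, GRCh38.p14) were at hand for 4 of the 6 genes. The pair printed here belongs to PDGFD and PDGFRB, which differed from day 0 in opposite directions on every sorted day. Each run is the 250 bases before the annotated start, read 5′ to 3′ on the gene's strand. Capitals mark matches on either strand to 3 short motifs. The GC box was searched as GGGCGG. The CCAAT box was searched under its own letters. The core bound by ETS-family factors was searched as GGAAGT. No motif overlapped another in these windows.
PDGFD, chr11:104164148-104164397, minus strand: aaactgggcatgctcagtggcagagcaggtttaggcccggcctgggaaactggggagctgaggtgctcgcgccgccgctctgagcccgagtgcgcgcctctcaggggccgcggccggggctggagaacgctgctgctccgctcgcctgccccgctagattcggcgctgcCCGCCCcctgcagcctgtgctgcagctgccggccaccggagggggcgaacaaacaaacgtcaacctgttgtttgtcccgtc
PDGFRB, chr5:150155846-150156095, minus strand: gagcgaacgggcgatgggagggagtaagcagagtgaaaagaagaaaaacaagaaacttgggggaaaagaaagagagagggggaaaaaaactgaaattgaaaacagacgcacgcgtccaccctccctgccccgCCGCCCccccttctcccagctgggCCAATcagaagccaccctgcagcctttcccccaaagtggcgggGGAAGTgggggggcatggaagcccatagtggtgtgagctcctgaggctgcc
The PDGFD window held 1 GC box match, 81 bases before the start, and neither of the other motifs. The PDGFRB window held 1 match to each motif, at 118 (GC box), 94 (CCAAT) and 51 (GGAAGT) bases before the start. Of 35116 promoter windows of this length, 42.6% held GGGCGG, 32% held CCAAT and 19.5% held GGAAGT, so none of these matches is rare. The 4 PDGFA windows in the table, which belong to alternative starts, held between 1 and 5 GC box matches each. Of the 2 PDGFRA windows, 1 held 2 GC box matches and 1 CCAAT match, and the other held none of the 3 motifs. Windows were also searched for AGATAA, which transcription factors of the zinc-finger family active in blood bind, and 9.17% of all windows held it. Promoters with a TATA box were sought by the letters TATAAA, held by 10.7% of all windows. Neither had a match in any of the 8 windows of these genes. These are matches of letters and no measurement of binding.

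Levels below are log2(intensity + 32), where the intensity is the authors' deposited value for a probe set. The array median lay between 6.92 and 6.97 on this scale. A fold on it understates the change of dim genes, and levels of different probe sets are not set against each other. A gene is represented by its brightest probe set unless stated otherwise; for PDGFB this left aside a slightly brighter one, 216061_x_at, whose suffix marks probes that may also bind other transcripts. Changes were tested with limma in 1 fit over all 8 arrays and all 13647 genes that exceeded the array median on 2 or more arrays, and a gene was called at a Benjamini-Hochberg adjusted p under 0.05. All 6 PDGF genes were among the genes tested. The comparisons with day 0 share the same 2 day 0 arrays, so a gene that differs in all of them does not do so independently.

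At day 4, 1 of the 6 genes was called higher (PDGFD) and 2 were called lower (PDGFC and PDGFRB), while 18.4% of all genes tested were called in this comparison, 8.52% higher and 9.91% lower. At day 6, PDGFD and PDGFB were called higher and PDGFC and PDGFRB lower, against 23.4% of all genes, 9.73% higher and 13.6% lower. At day 8 the calls were PDGFD higher and PDGFC and PDGFRB lower, against 24.5% of all genes, 10.4% higher and 14.1% lower. Between replicates, 1 gene lay over 2-fold apart at day 0, 909 on day 4, 1262 on day 6 and 215 on day 8. Leaving out the first replicate of both day 4 and day 6, the arrays with the highest ACTB ratios given below, the counts were 4, 5 and 5 of 6, while 34.9%, 44.7% and 49.7% of all genes were then called. Between sorted days none of the 6 genes was called by limma, nor did any reach an unadjusted p under 0.05, and 0% of all genes were called.

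**Figure D1:**
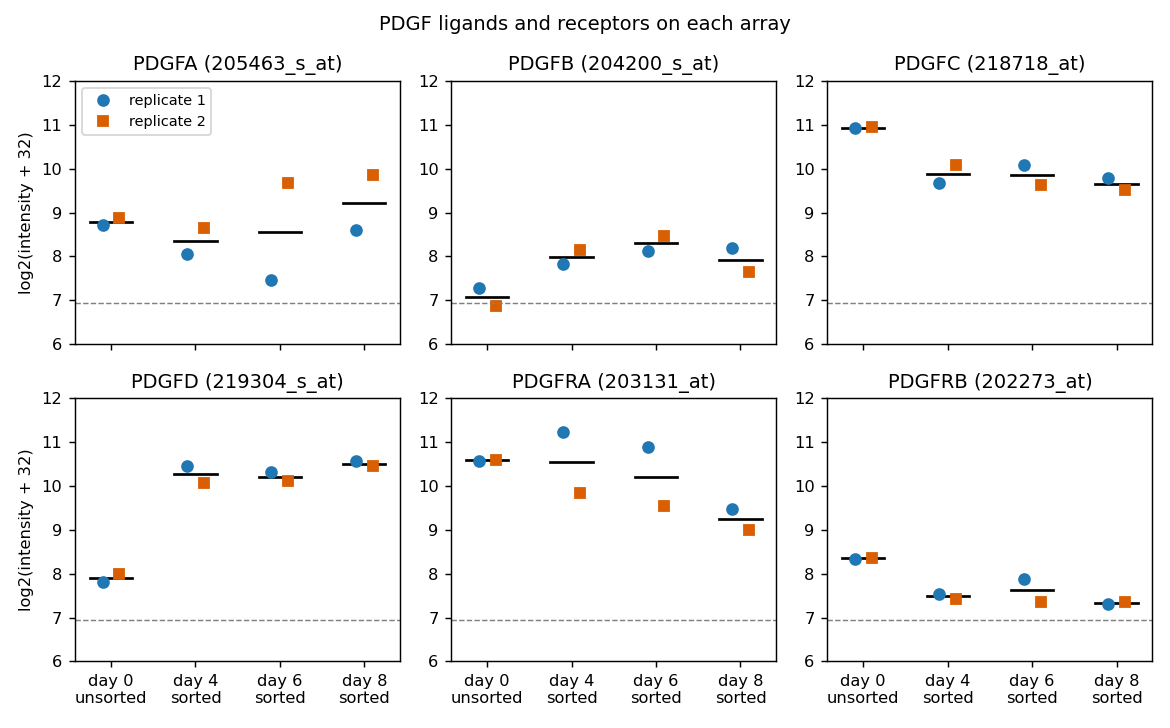
Level of each PDGF gene, as log2(intensity + 32) of the probe set used for the gene, on the 8 arrays by day. Circles are replicate 1, squares replicate 2, black lines the mean of 2 arrays, and the dashed line the median over arrays of the array median. PDGFD lies between 10.08 and 10.57 on the sorted arrays against 7.81 and 7.99 at day 0, and PDGFRA and PDGFA are the genes whose 2 arrays of a sorted day lie far apart.

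PDGFD encodes a ligand that acts mainly through the beta receptor. Its level was 7.81 and 7.99 on the day 0 arrays, 10.46 and 10.08 on those of day 4, 10.32 and 10.11 on those of day 6, and 10.57 and 10.45 on those of day 8. Every sorted array therefore lay above both day 0 arrays by more than 2 log2 units, and the sorted days lay close together. PDGFD was higher than at day 0 by 2.37 ± 0.20 (SE) at day 4 (5.17-fold, adjusted p = 0.000396 in limma), by 2.31 ± 0.20 at day 6 (4.97-fold, adjusted p = 0.000401) and by 2.61 ± 0.20 at day 8 (6.12-fold, adjusted p = 0.000234). Of all genes tested, 98.3%, 98.1% and 98.4% had a smaller signed change in these comparisons. The call held under each of 20 alternatives in each comparison, with an adjusted p between 0.000104 and 0.009. The order of the days was day 8, day 4, day 6, day 0. Neighbouring sorted days in that order did not differ beyond their spread: day 8 against day 4 gave 0.24 ± 0.20 and day 6 against day 4 gave -0.06 ± 0.20.

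The second PDGFD probe set, 222860_s_at, was dimmer and moved the same way by less. It read 6.61 and 6.29 on the day 0 arrays, 7.21 and 7.28 on those of day 4, 6.88 and 7.09 on those of day 6, and 7.27 and 7.16 on those of day 8. The day 0 arrays again lay below all sorted arrays. When each probe set was fitted on its own, over all 30365 probe sets that passed the same filter, it was higher by 0.80 ± 0.15 (adjusted p = 0.0147 in limma), 0.53 ± 0.15 (adjusted p = 0.05, on the limit) and 0.77 ± 0.15 (adjusted p = 0.0143) at day 4, day 6 and day 8. In that fit 14.4%, 18.6% and 19.3% of probe sets were called on these days, 6.29%, 7.92% and 8.29% as higher.

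PDGFB, the ligand by which endothelium attracts mural cells, read higher on every sorted array than on either day 0 array. Its level was 7.28 and 6.87 on the day 0 arrays, 7.82 and 8.15 on those of day 4, 8.13 and 8.47 on those of day 6, and 8.19 and 7.64 on those of day 8. One day 0 array lay below the array median. The change from day 0 was 0.91 ± 0.25 at day 4 (adjusted p = 0.0502 in limma), 1.23 ± 0.25 at day 6 (2.34-fold, adjusted p = 0.0145) and 0.84 ± 0.25 at day 8 (adjusted p = 0.052). Day 6 was the only one of these past the threshold, but the difference of day 6 from day 4 was 0.32 ± 0.25 and of day 8 from day 6 was -0.39 ± 0.25, with adjusted p of 0.976 and 0.955. The calls at day 4 and day 8 sat on the threshold: 7 of 19 alternatives passed it at day 4 and 6 of 19 at day 8, with adjusted p from 0.0356 to 0.305 and from 0.0289 to 0.284. The day 6 call was lost without replicate 2 of day 0 (adjusted p = 0.12) and without replicate 2 of day 6 (adjusted p = 0.0561).

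The other PDGFB probe sets gave smaller differences. 216061_x_at read 7.51 and 7.19 on the day 0 arrays, 7.72 and 8.21 on those of day 4, 8.10 and 8.59 on those of day 6, and 8.36 and 7.86 on those of day 8. Its array-by-array pattern followed that of the first probe set, with changes of 0.61 ± 0.28, 0.99 ± 0.28 and 0.76 ± 0.28 and adjusted p in limma of 0.218, 0.0532 and 0.107. 216055_at stayed between 6.95 and 7.34 on all 8 arrays, and 217112_at lay below the array median on all of them. The annotation lists no accession for this last pair of probe sets.

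PDGFC, a ligand of the alpha receptor that needs proteolytic activation, was lower on all sorted arrays. Its level was 10.92 and 10.95 on the day 0 arrays, 9.68 and 10.09 on those of day 4, 10.08 and 9.63 on those of day 6, and 9.80 and 9.51 on those of day 8. No sorted array reached the day 0 arrays, and the sorted days overlapped one another. It fell by 1.05 ± 0.24 on the log2 scale at day 4 (adjusted p = 0.0244 in limma), by 1.08 ± 0.24 at day 6 (adjusted p = 0.0187) and by 1.28 ± 0.24 at day 8 (adjusted p = 0.00964), or 2.07-fold, 2.12-fold and 2.44-fold. The change from day 4 to day 8 was -0.23 ± 0.24. The calls rest on both day 0 arrays: without replicate 1 or replicate 2 of day 0 the adjusted p was 0.153 and 0.162 for day 4, 0.123 and 0.13 for day 6, and 0.0778 and 0.0825 for day 8. They were also lost at day 4 without its replicate 1 (adjusted p = 0.0896), at day 6 without its replicate 2 (adjusted p = 0.062) and at day 8 without its replicate 2 (adjusted p = 0.0753). The second probe set, 222719_s_at, read 6.99 and 6.92 at day 0 and between 5.84 and 6.15 on the sorted arrays. It also lay lower on every sorted array, but was above the array median on 1 array alone and was not tested.

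PDGFA, the main ligand of the alpha receptor, differed more between the 2 arrays of day 6, and of day 8, than the day means did from one another. Its level was 8.72 and 8.87 on the day 0 arrays, 8.06 and 8.64 on those of day 4, 7.46 and 9.67 on those of day 6, and 8.59 and 9.86 on those of day 8. Replicate 2 was the higher array on each sorted day, by 0.58, 2.20 and 1.27 log2 units. Against day 0 the change was -0.45 ± 0.72 at day 4, -0.23 ± 0.72 at day 6 and 0.43 ± 0.72 at day 8, with adjusted p in limma between 0.707 and 0.858, and these errors leave room for a change of more than 2-fold either way. The second probe set, 216867_s_at, repeated the order of the replicates on the sorted days. It read 8.74 and 8.73 on the day 0 arrays, 6.90 and 8.55 on those of day 4, 6.75 and 8.77 on those of day 6, and 8.23 and 8.71 on those of day 8. On it, replicate 1 of day 4 and of day 6 lay below the array median, while replicate 2 lay near the day 0 level on each sorted day. Its change from day 0 to day 8 was -0.27 ± 0.74, of the other sign than on the first probe set.

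PDGFRA, the alpha receptor, showed the reverse order between replicates and the lowest levels at day 8. Its level was 10.58 and 10.60 on the day 0 arrays, 11.24 and 9.84 on those of day 4, 10.88 and 9.54 on those of day 6, and 9.49 and 8.99 on those of day 8. Replicate 2 minus replicate 1 was -1.41, -1.35 and -0.50 log2 units on the sorted days in order, and at day 4 and day 6 replicate 1 exceeded both day 0 arrays while replicate 2 lay under them. Both day 8 arrays lay below all other arrays. The change from day 0 was -0.05 ± 0.56 at day 4, -0.38 ± 0.56 at day 6 and -1.35 ± 0.56 at day 8, with adjusted p in limma of 0.966, 0.684 and 0.128. The day 8 difference passed the threshold under 3 of 20 alternatives. With the first replicates of day 4 and day 6 both left out, it stayed at -1.35 and the day 6 difference became -1.05. The arrays left out were those on which PDGFRA read highest, and 1 array then remained on each of these days.

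Within the sorted gate PDGFRA had the most negative differences among the PDGF genes from day 4 and day 6 to day 8. Day 8 against day 4 gave -1.30 ± 0.56 and day 8 against day 6 gave -0.97 ± 0.56, with adjusted p in limma of 0.724 and 0.955. The groups did not overlap in either comparison, which also held for PDGFRB. How many of all genes tested did the same was not counted. Of the genes tested, 0.183% and 0.264% had a lower change, but 0% of genes were called in either comparison. Counts at an unadjusted p under 0.05 were 887 for day 8 against day 4, 338 for day 8 against day 6 and 722 for day 6 against day 4. PDGFA stood near the other end, with 0.88 ± 0.72 from day 4 to day 8, above 98.9% of genes tested and likewise not called.

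The other PDGFRA probe sets added little. 215305_at read 7.28 and 7.16 on the day 0 arrays, 7.26 and 6.96 on those of day 4, 7.01 and 6.85 on those of day 6, and 6.87 and 6.65 on those of day 8. It was close to the array median and repeated both features of the first probe set, replicate 1 above replicate 2 on each sorted day and the lowest mean at day 8. Its change at day 8 was -0.46 ± 0.15 (adjusted p = 0.081 in limma, over probe sets). 1554828_at and 211533_at lay below the array median on all 8 arrays, with ranges of 5.81 to 5.99 and 5.49 to 5.67.

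PDGFRB, the beta receptor and a marker of pericytes, was lower on all sorted arrays. Its level was 8.35 and 8.36 on the day 0 arrays, 7.54 and 7.42 on those of day 4, 7.89 and 7.36 on those of day 6, and 7.31 and 7.36 on those of day 8. All 6 sorted arrays lay under the day 0 arrays and above the array median. It fell by 0.87 ± 0.18 on the log2 scale at day 4 (adjusted p = 0.0187 in limma), by 0.73 ± 0.18 at day 6 (adjusted p = 0.0313) and by 1.02 ± 0.18 at day 8 (adjusted p = 0.00862), or 1.83-fold, 1.65-fold and 2.03-fold. Among the sorted days the differences were between -0.30 and 0.14, each within 2 SE. The calls depended on single arrays. Without replicate 1 or 2 of day 0 the adjusted p was 0.115 and 0.12 for day 4, 0.157 and 0.161 for day 6, and 0.0653 and 0.0665 for day 8. Without replicate 1 or 2 of day 4 the day 4 call had an adjusted p of 0.0517 and 0.0754, and without replicate 1 or 2 of day 8 the day 8 call had 0.0534 and 0.0539. The day 6 call was lost without replicate 2 of day 6 (adjusted p = 0.0682) and without either day 8 array (adjusted p = 0.0613 and 0.061).

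**Figure D2:**
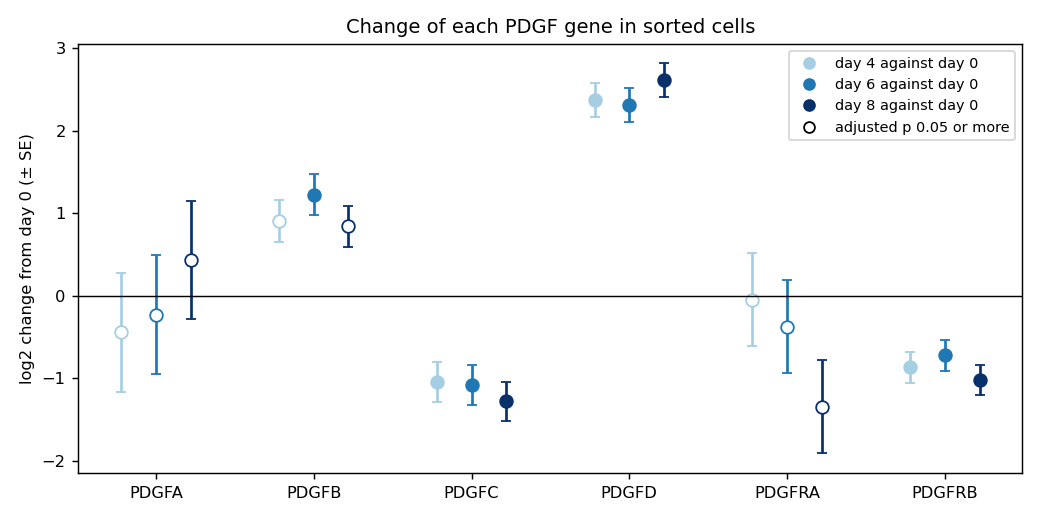
Change of each PDGF gene from day 0 to day 4, day 6 and day 8 on the log2(intensity + 32) scale, with the SE from the fit over 8 arrays. Filled points had an adjusted p under 0.05 in limma. PDGFD lies between 2.31 and 2.61, PDGFC and PDGFRB lie below 0 on each day, and the error bars of PDGFA cross 0.

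**Figure D3:**
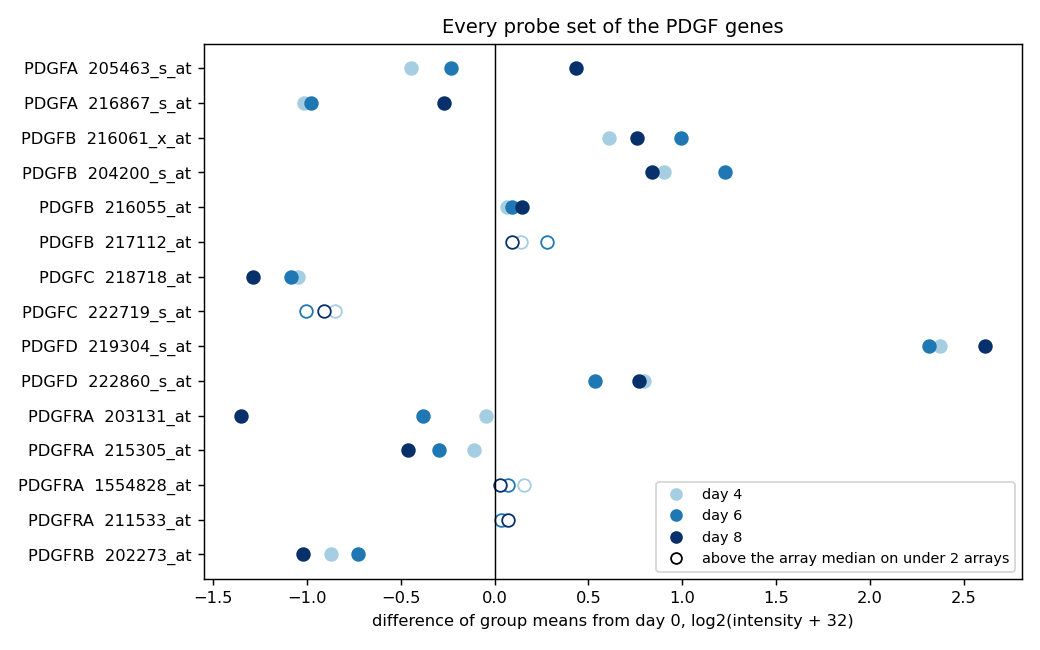
Difference of each day's mean from the day 0 mean, in log2(intensity + 32), for all 15 probe sets of the 6 genes. Open circles mark probe sets above the array median on under 2 arrays. Both probe sets of PDGFD lie above 0 and both of PDGFC below 0, while the 4 probe sets of PDGFB differ among themselves in size, as do the 4 of PDGFRA.

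Markers of other cell types moved between the same groups. The summed intensity of 10 fibroblast and stromal genes was 43751 to 44996 at day 0, 17611 to 28079 at day 4, 14038 to 22791 at day 6 and 15829 to 16089 at day 8, and all 10 genes lay above the array median at day 0. Of these 10, 4 fell and 1 rose at day 4, 6 fell at day 6, and 4 fell and 1 rose at day 8. The shares over all genes tested were 9.91%, 13.6% and 14.1% lower and 8.52%, 9.73% and 10.4% higher. Median changes of the list were -1.07, -1.09 and -1.10, against 0.02, -0.03 and -0.03 over all genes. COL1A1, a chain of type I collagen, fell 10.1-fold, 7.28-fold and 10.5-fold on the 3 days. Other genes of the list went the other way. THY1 rose 2.00-fold at day 4, and COL3A1 read 13.50 and 12.89 at day 4 against 12.38 and 12.21 at day 0. PDGFRB and PDGFC, which such cells also express, fell in the same comparisons. The part of these markers in the falls was not tested, and fewer cells of a type cannot be told apart from less RNA per cell in such samples.

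Genes of mural cells, the partners of PDGFB-secreting endothelium, went both ways. Of 12 mural genes, 7 were tested. RGS5, a pericyte regulator of G protein signalling that is not specific to mural cells, rose 11.1-fold at day 4, 11.0-fold at day 6 and 8.66-fold at day 8. TAGLN, a smooth muscle actin-binding protein, fell 10.8-fold, 9.16-fold and 16.9-fold, and CNN1, a smooth muscle calponin, fell 2.71-fold at day 8. The summed mural signal was 6239 to 6300 at day 0, of which RGS5 made up 22.2% and 19.9%, and 11440 to 22874 on sorted arrays, of which it made up 83.1% to 87.5%. The pericyte markers CSPG4 and ABCC9 lay below the array median on all 8 arrays. Others of the list lay above it on all 8: NOTCH3 at 7.24 to 7.90, ANPEP at 8.08 to 8.80, DES at 7.12 to 7.61 and ACTA2 at 9.08 to 10.58. On the sorted arrays 6 or 7 of the 12 mural genes lay above it. The endothelial sum was 1232 to 1332 at day 0 and 30566 to 39878 on sorted arrays, with 10 of 12 genes called higher on each day. The gate genes themselves read 13.55 to 13.87 for KDR and 12.53 to 13.59 for PECAM1 on the sorted arrays, against 9.02 and 9.24 and against 6.77 and 6.38 at day 0, and CDH5, a cadherin of endothelium, averaged 12.70, 12.75 and 13.05 against 5.71. All 9 pluripotent cell genes tested fell on each day. Of 4 tested genes of primitive streak and paraxial mesoderm, where PDGFRA is known to be expressed, 1 fell on each day, EOMES. Beside these counts, 8.52%, 9.73% and 10.4% of all genes were called higher on the 3 days and 9.91%, 13.6% and 14.1% lower.

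PDGFRA and PDGFA lay in opposite order between replicates on each sorted day. Other values also differed between the same arrays, and some of them, such as the ACTB ratio and the endoderm sum, changed their order at day 8. The fibroblast sum was higher on replicate 1, with 28079 against 17611 on day 4, 22791 against 14038 on day 6 and, nearly equal, 16089 against 15829 on day 8. The mural sum was higher on replicate 1 on each sorted day, with 21304 against 14001, 22874 against 12542 and 16663 against 11440. RGS5, which is not specific to mural cells, made up 83.1% to 87.5% of this sum on those arrays. Of the 12 mural genes, 11, 6 and 9 read higher on replicate 1 of day 4, day 6 and day 8. PLAU, the urokinase-type activator, read 10.71 and 9.94 on day 4, 11.05 and 9.73 on day 6, and 10.21 and 9.56 on day 8, in replicate order. RNA integrity was followed by the ACTB control, whose 3' probe set exceeded its 5' probe set 19.0-fold and 9.18-fold on day 4, 31.0-fold and 16.0-fold on day 6, and 9.91-fold and 15.1-fold on day 8. At day 0 this ratio was 8.92 and 10.4. The GAPDH ratio was 1.71 and 1.91 at day 0, 2.22 and 2.15 for day 4, 3.73 and 3.41 for day 6, and 2.41 and 3.08 for day 8, so it was higher on every sorted array than on both day 0 arrays. Sums of other lists also differed between replicates. The endoderm sum was 1451 and 1465 at day 0, 7450 and 26507 for day 4, 5029 and 9782 for day 6, and 17372 and 12485 for day 8. The erythroid sum was 947 and 5404 for day 6 and the myeloid sum 4683 and 8685, again in replicate order. Of the 8 myeloid genes, 4 lay above the array median on each day 6 array. LAPTM5 read 11.45 and 12.33 there and MRC1 10.59 and 11.60, while CD14 and SPI1 lay below the array median. The part of all these differences in the order and in the changes of the PDGF genes was not tested. The day 0 arrays differed by at most 0.41 on these 6 genes.

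**Figure D4:**
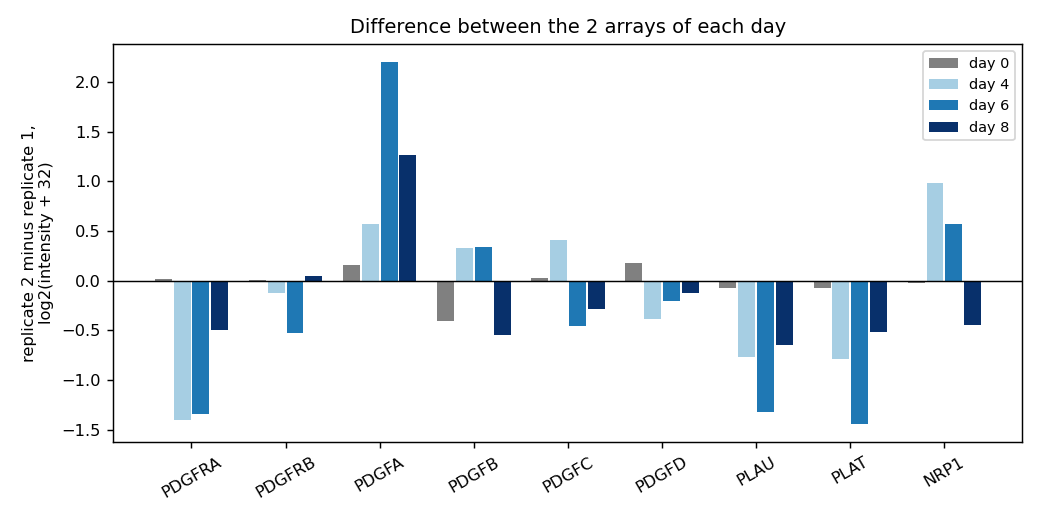
Replicate 2 minus replicate 1 of each day, in log2(intensity + 32), for the 6 PDGF genes, the ligand-activating proteases PLAU and PLAT and the co-receptor NRP1. PDGFRA, PLAU, PLAT and, by less, PDGFD are lower and PDGFA is higher on replicate 2 of each sorted day.

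Ligand maturation was followed through the proteases. FURIN, which cleaves PDGF precursors inside the cell, read 7.99 and 7.70 on the day 0 arrays, 8.30 and 8.74 on those of day 4, 8.53 and 8.63 on those of day 6, and 8.39 and 8.73 on those of day 8. All sorted arrays lay above day 0, with changes of 0.67 ± 0.22, 0.73 ± 0.22 and 0.71 ± 0.22 and adjusted p in limma of 0.0816, 0.0533 and 0.055. PLAT, the tissue-type plasminogen activator that activates PDGFC, differed by -0.45 ± 0.49, -1.27 ± 0.49 and -1.07 ± 0.49 (adjusted p = 0.59, 0.11 and 0.153 in limma). PLAU, which can activate PDGFD, differed by -0.58 ± 0.47, -0.52 ± 0.47 and -1.02 ± 0.47 (adjusted p = 0.471, 0.493 and 0.164). ST14, or matriptase, which can also process PDGFD, differed by -0.26 ± 0.12, -0.33 ± 0.12 and -0.38 ± 0.12 (adjusted p = 0.197, 0.0982 and 0.0644). None of these 4 proteases passed the threshold on any day.

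Of the 8 genes listed for PDGF maturation and binding, 1 rose at day 4 and 2 at day 6 and day 8, and none fell. Of all genes tested, 8.52%, 9.73% and 10.4% were called higher on these days and 9.91%, 13.6% and 14.1% lower. NRP1, a co-receptor of vascular endothelial growth factor that also takes part in PDGF signalling, rose 4.58-fold, 4.61-fold and 5.31-fold from day 0 (adjusted p = 0.00714, 0.00616 and 0.00424 in limma). A2M, a plasma protein that binds PDGF, rose 6.88-fold at day 6 and 11.9-fold at day 8 (adjusted p = 0.0364 and 0.0144). Its arrays lay far apart on both earlier days, with 9.51 and 11.21 for day 4 and 9.81 and 11.87 for day 6. The median change of the list was 0.06, -0.25 and -0.06, against 0.02, -0.03 and -0.03 over all genes.

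Below the receptors, 20 of 24 listed adaptors and effectors could be tested. Of these, 4 rose and 3 fell at day 4, 5 rose and 3 fell at day 6, and 6 rose and 3 fell at day 8. Over all genes tested, 8.52%, 9.73% and 10.4% were called higher on these days and 9.91%, 13.6% and 14.1% lower. Median changes of the list were 0.30, 0.25 and 0.40, against 0.02, -0.03 and -0.03 over all genes. SHC1, an adaptor that links receptors to RAS, rose 2.45-fold at day 4, and the transcription factor STAT5A rose 2.42-fold. GRB10, an adaptor of growth factor receptors, PIK3R1, the regulatory subunit of PI3 kinase, and the docking protein GAB1 rose 3.15-fold, 2.91-fold and 2.70-fold at day 6. At day 8 they were higher than at day 0 by 2.97-fold, 2.58-fold and 2.42-fold. GRB14, an adaptor that inhibits insulin receptor signalling, fell 4.47-fold, 6.99-fold and 8.81-fold, and the catalytic subunit PIK3CB fell 2.25-fold at day 4. These adaptors serve many receptor kinases, KDR among them. A gene is given for days when it was among the 4 largest called changes of this list. The days named therefore set no order of changes. All 6 sorted arrays lay above both day 0 arrays for SHC1, STAT5A, GRB10, PIK3R1 and GAB1, and below them for PIK3CB. SHC1 spanned 13.20 to 13.57 over the sorted days, up from 12.10 and 12.13. GAB1 had reached 10.13 and 10.04 by day 4, up from 8.96 and 9.07. No gene of the list was called between sorted days.

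Among 9 tested negative regulators, SPRY1, a feedback inhibitor of receptor kinase signalling, was the 1 gene called on each day, higher by 2.95-fold, 2.72-fold and 2.73-fold. Over all genes 8.52%, 9.73% and 10.4% were called higher, so 1 of 9 lies near that share. Of 8 immediate early genes that growth factors induce, 3 fell at day 4, 4 at day 6 and 2 at day 8, and none rose. The share called lower over all genes was 9.91%, 13.6% and 14.1%. FOS fell 3.02-fold at day 4 and 7.44-fold at day 6, CCN1 3.62-fold, 7.53-fold and 9.97-fold on the 3 days, and IER3 3.71-fold, 3.77-fold and 7.38-fold. Among 11 tested relatives, KITLG, the ligand of the related receptor KIT, rose 3.09-fold, 3.04-fold and 3.66-fold, and FLT4, a receptor of the VEGF family, 5.12-fold, 7.02-fold and 9.69-fold. FLT1, another VEGF receptor, rose 5.58-fold at day 8, where the VEGFA ligand fell 2.19-fold.

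Platelets store PDGF, and genes of their lineage were called higher than at day 0. F2RL2, a thrombin receptor of megakaryocytes on this list, was already 21.9-fold higher at day 4. PF4, a platelet chemokine, read 12.84 and 9.72 at day 8 against 7.25 and 7.50 at day 0, and 4 of 6 tested megakaryocyte genes rose at day 8 against 1 at day 4 and day 6. The summed signal of the list was 1206 to 1311 at day 0 and 11066 to 20905 on the sorted arrays. On the day 4 and day 6 arrays this sum was mostly F2RL2, which read 13.23 to 13.47 there. No other gene of the list exceeded 9.22 on those arrays. PDGFB read 8.19 and 7.64 on the day 8 arrays and 8.13 and 8.47 on those of day 6, where PF4 read 7.30 and 9.22. The part of these cells in the PDGFB signal was not tested.

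PDGFD was the 1 member whose day means spanned at least 2 log2 units, so the genes with the most similar pattern were sought for it. Likeness was the root mean square distance over 8 arrays between profiles centred on each gene's own mean, among 13646 other genes. The nearest were DAB2, an endocytic adaptor (distance 0.14), RECK, a membrane-anchored inhibitor of matrix metalloproteinases (0.15), and ZNF521, a zinc-finger factor of blood progenitors (0.19). DAB2 read 9.01 and 9.12 on the day 0 arrays, 11.62 and 11.24 on those of day 4, 11.89 and 11.43 on those of day 6, and 11.87 and 11.76 on those of day 8. RECK read 9.03 and 9.23, 11.51 and 10.93, 11.37 and 11.24, and 11.59 and 11.25 on the same arrays. Like PDGFD, all 3 genes were low on both day 0 arrays and higher on replicate 1 than on replicate 2 of each sorted day. They were chosen by nearness to PDGFD on these same arrays, so the shared pattern is no separate result.

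**Figure D5:**
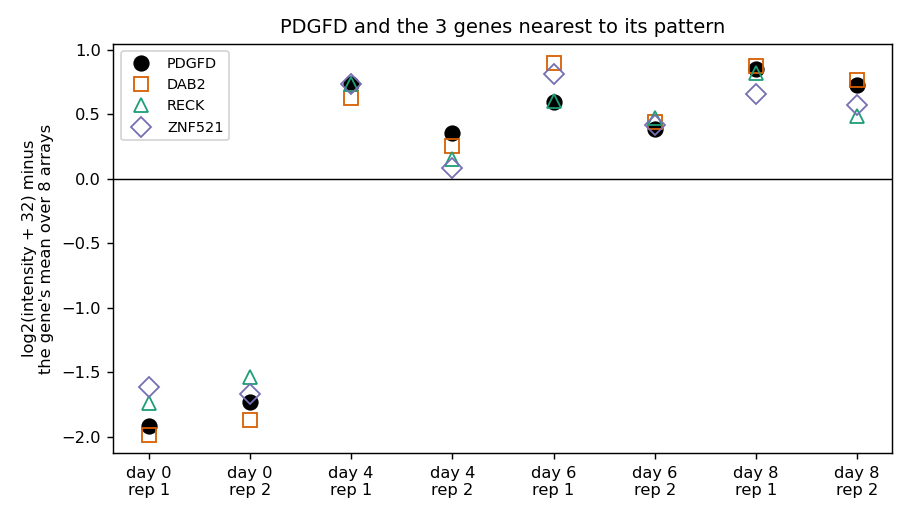
PDGFD and the 3 genes nearest to its pattern, DAB2, RECK and ZNF521, as log2(intensity + 32) minus each gene's own mean over the 8 arrays. All 4 genes lie below 0 on both day 0 arrays and above 0 on the 6 sorted arrays.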

How the data were processed

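The deposited table gives linear intensity values, 1 for each probe set on each array, made by the authors with MAS5, per the submitters' processing notes, with version, scaling and detection calls not given in the sources used here. Groups, days and replicate numbers follow the sample titles. In 3 samples titled day 6 or day 8, a source name of day 4 was overruled by title, description and stage. Of 54675 probe sets, 41091 carry 1 symbol in the platform annotation, 1801 carry more and 11721 carry none; the 62 controls were left out. By gene ID 41037 were found in a RefSeq gene table, which changed 0 symbols. No scaling was added. Values were transformed as log2(intensity + 32). Each gene was represented by its brightest probe set on average, with _x_at sets as a last choice.

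Changes were tested in limma 3.58.1 under R 4.3.3 (lmFit, eBayes with trend, a term per group, two-sided, 4 residual and 2.84 prior degrees of freedom), checked on simulated data. Named genes were all 6 members, up to 4 called genes per list and comparison by size of change, the 4 proteases and NRP1 always, with KDR, PECAM1 and CDH5 as the check of the sort, and for members spanning 2 log2 units the 3 nearest genes. The members and lists were chosen with earlier results of these data known. Alternatives were offsets of 1 and 128, no filter or one at the 75th percentile, quantile and median scaling, the mean of all probe sets, each probe set alone, no trend, only the groups compared, a replicate block, each array left out, and replicate 1 of day 4 and day 6 left out. Fits on the 6 sorted arrays were added after seeing the data. Figures were drawn with matplotlib 3.10.9 in Python 3.11.15.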

Additional observations from a re-analysis of the deposited data

How the results depend on the processing

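PDGFD kept its call and direction under each alternative in each comparison with day 0. Counts of called members against the main 3, 4 and 3 at day 4, day 6 and day 8 moved with single arrays: leaving out 1 array at a time gave 1 to 4 on each day, with the lone array of its group assumed to vary like the other groups. At day 6 the filter at the 75th percentile gave 2, because PDGFB and PDGFRB were then not tested. At day 8 the replicate block, the 4 arrays of the groups compared alone, and the fit without replicate 1 of day 4 and of day 6 gave 5 each, adding PDGFB and PDGFRA, while 31.1%, 49.7% and 49.7% of all genes were called in them, against 24.5% in the main comparison. PDGFRB missed the threshold at day 6 when only the arrays of the 2 groups were fitted (adjusted p = 0.0904 in limma). Of 744 values of single genes under an alternative, 702 kept their side of the threshold, 25 lost a call and 17 gained one; no called value changed direction.

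The replicate numbers share no stated culture or day. Differences between replicates correlated across genes by 0.6 between day 4 and day 6, by 0.188 between day 4 and day 8, by 0.407 between day 6 and day 8, and by -0.025 to 0.024 with those of day 0. Since the numbers show no relation between day 0 and any sorted day, they were not taken to pair the samples, although the sorted days share deviations. With the replicate block, 4 members were called at day 4 and day 6 and 5 at day 8, with 22.3%, 28.4% and 31.1% of all genes called, and 0 members between sorted days, where the added models of the 6 sorted arrays alone also called 0 either way. PDGFRA at day 8 then had an adjusted p of 0.0327 against day 0. Dim probe sets near the array median limit what can be seen of PDGFB at day 0 and of PDGFRB in sorted cells.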

Other observations

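Of the 10 stromal genes, 8 read higher on replicate 1 than on replicate 2 of day 4, 8 of day 6 and 7 of day 8, the order in which PDGFRA lay, and 6 did so on all 3 days. LUM and DCN, proteoglycans picked here because of their values, are among these 6. LUM read 11.41 and 8.81 on the day 4 arrays, 10.64 and 7.81 on those of day 6, and 9.93 and 9.24 on those of day 8, against 10.35 and 10.29 for undifferentiated cells. DCN read 8.41 and 6.51, 8.16 and 6.27, and 7.22 and 6.70 on the same sorted arrays, against 7.04 and 7.06. FBN1 lay the other way, with 10.39 and 10.93 on the day 4 arrays and 10.63 and 10.95 on those of day 6. While LUM and DCN on replicate 1 of these days stood above day 0, as PDGFRA did, 6 of the 10 genes lay below day 0 on both arrays of day 4 and of day 6. The replicate order was not particular to the stromal list. Of 8 immediate early genes, 7, 8 and 7 read higher on replicate 1 of day 4, day 6 and day 8. Of 12 mural genes 11, 6 and 9 did so, and of 12 endothelial genes 2, 2 and 6. The share over all genes was not counted.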
